A study of Mus musculus with 8 samples.

Results

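The interferon-induced genes described here are Ifitm1, Ifitm2 and Ifitm3, Ifit1 and Ifit3, Isg15, and the transcription factors Irf7, Irf9 and Stat2. They were taken as every probe whose symbol in the platform annotation is one of these 9 names. The annotation gave 1 probe for each gene, 9 of the 23473 probes on the array, and all 9 were among the 21583 probes tested. The annotation names 19321 genes in all. The genes were chosen by the level of Ifitm3, which differed between the 2 control arrays, so that difference is given as a description and supports nothing. The study measured total RNA from the brains of male C57Bl/6J mice given as 9 weeks old. Each of 8 samples was labelled with Cy5 and hybridised to a one-colour oligonucleotide array. The control group (day 0, n = 2) had received water, and the other mice had received trehalose, a disaccharide of glucose, for 1 day (n = 3) or 10 days (n = 3). All mice were of 1 strain with no stated genetic change, were fasted before they were killed, and were perfused with heparinised buffer. The treatment text names cerebral cortex and the design text a whole left hemisphere, so the dissection is not settled. No water-drinking group of day 1 or day 10 was analysed here, so trehalose and time since the start cannot be told apart. The arrays hold RNA of whole tissue, in which fewer cells of a type and less RNA per cell cannot be told apart.

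Type I interferons bind the receptor Ifnar1 and Ifnar2, whose kinases phosphorylate signal transducers such as Stat2. Stat2 and Irf9 are parts of a complex that binds the interferon-stimulated response element, a promoter motif built on repeats of GAAA. Irf7 is both a target of that complex and a factor that drives further interferon transcription. The induced effectors include Isg15, a ubiquitin-like protein that is attached to other proteins. Ifit1 and Ifit3 belong to a family of antiviral proteins, of which Ifit1 binds viral RNA. The Ifitm proteins sit in membranes and restrict the entry of enveloped viruses. In brain these genes are known to respond in glia, endothelium and neurons during infection or inflammation.

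The promoter stretches that hold this motif are shown because they are the sequence feature by which these genes are known to share control. The search used GAAANNGAAA, where N is any base, on both strands of the 300 bases from 250 before to 50 after each annotated start. The sequences are RefSeq's on mouse build GRCm38.p6, printed 5′ to 3′ on the gene's own strand, with every match in capitals. On genes where the match lies on the opposite strand, the capitals hold its reverse complement, repeats of TTTC.
Ifitm3: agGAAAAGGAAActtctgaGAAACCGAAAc
Ifitm2: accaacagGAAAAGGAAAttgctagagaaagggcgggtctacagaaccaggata
Isg15: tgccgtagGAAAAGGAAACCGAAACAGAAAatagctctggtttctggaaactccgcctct
Ifit1: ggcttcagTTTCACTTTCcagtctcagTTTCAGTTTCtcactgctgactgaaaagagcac
Ifit3: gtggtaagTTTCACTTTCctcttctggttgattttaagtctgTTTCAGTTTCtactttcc
Stat2: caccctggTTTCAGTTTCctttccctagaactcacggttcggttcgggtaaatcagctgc
The Ifitm3 stretch lies at chr7:141010715-141010744 on the minus strand, in the first 30 transcribed bases, and holds 2 matches. The Ifitm2 stretch is at chr7:140955962-140956015 (minus strand), ends on the base before the start and holds 1 match. The Isg15 stretch at chr4:156200845-156200904 (minus strand) holds 3 matches that overlap one another. The Ifit1 stretch, chr19:34640777-34640836, and the Ifit3 stretch, chr19:34583365-34583424, are on the plus strand and hold 2 matches each. The Stat2 stretch at chr10:128270268-128270327 (plus strand) holds 1 match. Of the 10 member promoters in the table (Irf9 has 2 starts), 6 held the motif, against 1131 of all 32851 promoters (3.44%). The windows of Ifitm1, Irf7 and Irf9 did not hold these letters, which says nothing of the factors that bind there. Ifitm3 therefore carries the same motif as Ifitm2, Isg15 and both Ifit genes, and the arrays give a level for each of them. Ifitm5, Ifitm2, Ifitm1, Ifitm3 and Ifitm6 follow one another on chromosome 7 among the protein-coding genes of the reference annotation.

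The third 10 day array stood apart from the rest in high values. On it 84 probes were higher than on each of the other arrays by over 0.4 log2, against 0 to 10 such probes on any other array. None of the 84 was one of the 9 genes or of the wider interferon lists described further on.

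The level of Ifitm3 stood apart on 1 array. On the log2 intensity scale, Ifitm3 was at 9.06 and 7.64 in control replicates 1 and 2, at 8.98, 8.87 and 8.99 on the 3 arrays of trehalose for 1 day, and at 8.94, 8.87 and 8.89 in the 3 given it for 10 days. Control replicate 2 was the only low array, 1.23 log2 below the next lowest, and control replicate 1 was the highest of the 8. All 6 trehalose arrays lay between the 2 controls. The group means were 8.35 ± 1.00 in control, 8.95 ± 0.064 at 1 day and 8.90 ± 0.036 at 10 days (SD, n = 2, 3 and 3). Control replicate 2 minus control replicate 1 was -1.42 log2, a level 2.68-fold higher in replicate 1, and this is the difference by which the genes were chosen.

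The scanner values showed the same single low spot before any normalization. The Ifitm3 spot read 167.9 in control replicate 2 and 517.0 in control replicate 1. It read 509.6, 473.3 and 456.2 on the 1 day arrays and 459.2, 424.4 and 457.9 on the 10 day arrays. After subtraction of the mean of the blank spots, 138.0 was left in control replicate 2 and 489.4 in control replicate 1, so even the low spot was well above the blanks. In the authors' deposited table, Ifitm3 had 56.0 in control replicate 2 and 201.0 in control replicate 1, a ratio of 0.279, with 166.6 to 180.7 on the trehalose arrays. No scanner flag marked the spot as failed on any array.

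The spots around Ifitm3 were less low. The intensities of its 8 neighbours in control replicate 2 were 0.785 to 1.11 times those in control replicate 1, and the median ratio over all tested probes was 0.967. The Ifitm3 spot itself had a ratio of 0.325. Cmc2 (0.785), Tgfbr2 (0.800) and Map7 (0.840) had the lowest ratios of the neighbours, and the spots of Klk10, Slc7a9 and a probe with no listed gene read near the blanks. Whether the low value came from the sample or from the spot was not tested, since Ifitm3 has 1 probe and each sample 1 array.

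**Figure D1:**
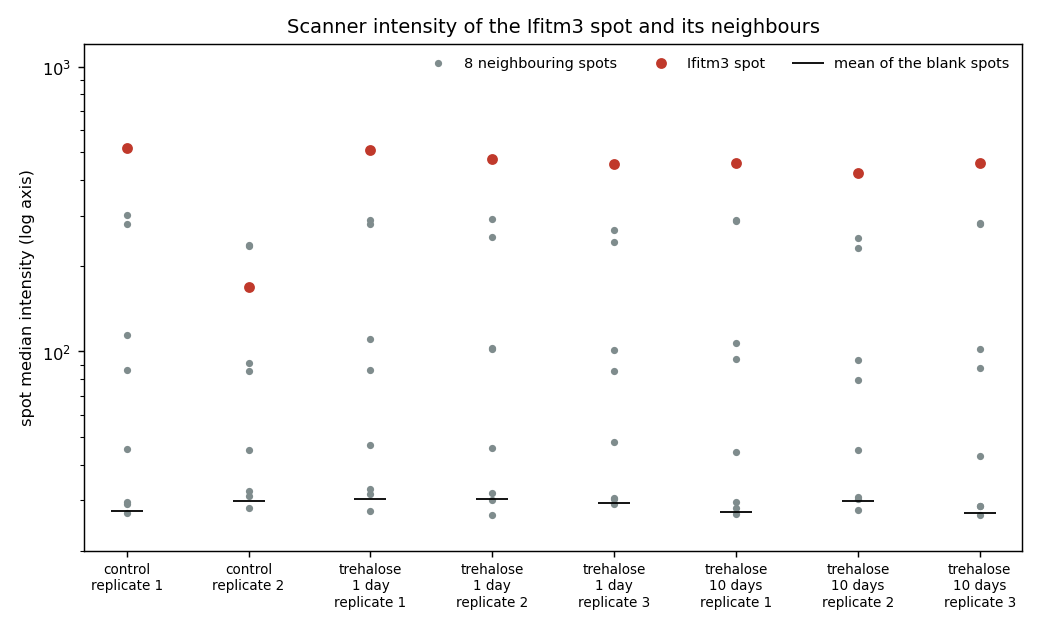
Scanner intensity (spot median, log axis) of the Ifitm3 spot in red, its 8 neighbouring spots in grey and the mean of the blank spots as a bar, on each of the 8 arrays. The Ifitm3 spot reads 167.9 in control replicate 2, against 424.4 to 517.0 on the other arrays. The neighbours in control replicate 2 are at 0.785 to 1.11 times their intensity in control replicate 1.

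Differences of this size between the control arrays were rare. Of the 21583 probes tested, 14 (0.0649%) were lower by over 1 log2 in control replicate 2 than in control replicate 1, and none was higher by that much. Ifitm3 had rank 8 from the lowest. Of these 14 probes, 9 are named for liver or blood genes, namely Mup2, Mup19, Alb, Serpina1c and Fabp1, and the haemoglobin genes Hba-a2, Hbb-bs, Hbb-bt and Hbb-b2. Those 9 also varied widely between the trehalose arrays, as did Zfp933 and 2 probes with no listed gene. Only Ifitm3 and Sult4a1, a brain sulfotransferase, were low in control replicate 2 alone. Sult4a1 was at 9.69 and 7.74 in control replicates 1 and 2, at 9.68 to 9.78 at 1 day and at 9.82 to 9.94 at 10 days.

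Isolated low values also occurred on other arrays. Over all 8 arrays, 7 probes (0.0324%) were lower on 1 array than on each of the other 7 by over 1 log2. Besides Ifitm3 and Sult4a1 in control replicate 2, these were Atl1, Kdm1a and Tmem251 in the third 1 day array, and Tfam and Pnkd in the third 10 day array. A single probe was higher by that much on 1 array. The SD of Ifitm3 over the 8 arrays was 0.465, above that of 99.9% of tested probes. Without control replicate 2 it was 0.072, above 56.8%, and the range over arrays shrank to 0.196 from the 1.42 of all 8.

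**Figure D2:**
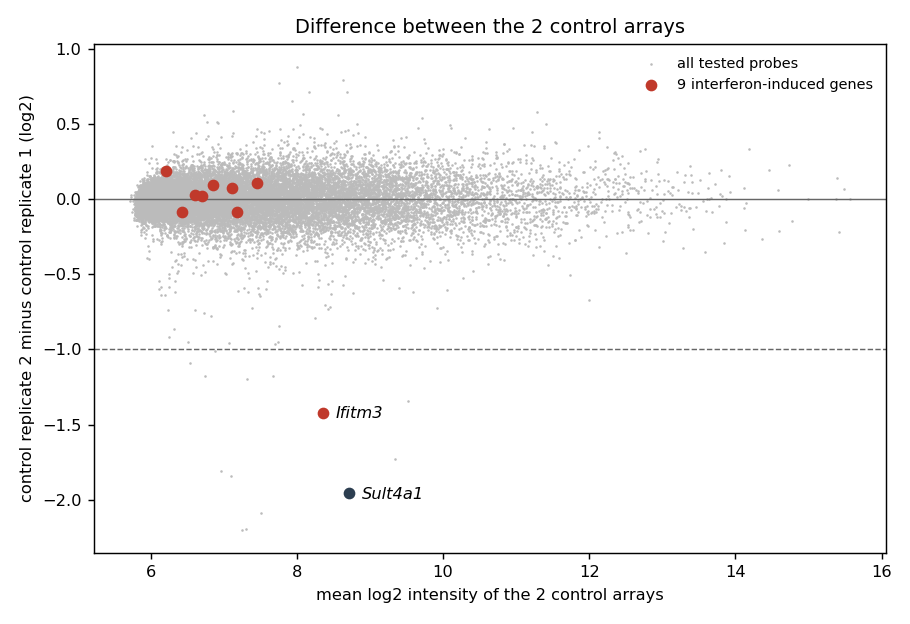
Control replicate 2 minus control replicate 1 (log2) against the mean log2 intensity of the 2 control arrays, 1 point per tested probe, with the 9 interferon-induced genes in red, Sult4a1 in dark blue and a dashed line at -1. Ifitm3 lies at -1.42 while the other 8 genes lie between -0.083 and 0.188.

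The other Ifitm genes were not low in control replicate 2. Ifitm1 was at 6.80 and 6.90 in control replicates 1 and 2, at 6.91, 6.81 and 6.67 at 1 day and at 6.86, 6.84 and 6.74 at 10 days. The third array of each trehalose group was the lowest of its group, and the 3 groups overlapped. Ifitm2 was at 7.07 and 7.15 in the controls, at 7.02, 7.12 and 7.12 at 1 day and at 7.21, 7.26 and 7.10 at 10 days. Its highest arrays were the first and second of the 10 day group, and the third fell among the others. Control replicate 2 exceeded control replicate 1 by 0.097 in Ifitm1 and by 0.076 in Ifitm2, the opposite side from Ifitm3. In the authors' deposited table both were slightly lower in control replicate 2, at ratios of 0.986 in Ifitm1 and 0.962 in Ifitm2. The Ifitm genes are closely related in sequence, and how far each probe tells them apart was not tested, because probe sequences were not used here.

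The antiviral effectors spanned at most 0.25 log2 over the arrays. Their SD was nevertheless above that of 62.7% of tested probes in Ifit1, 68.9% in Ifit3 and 45.6% in Isg15. Ifit1 was at 6.12 and 6.30 in the controls, at 6.31, 6.28 and 6.18 at 1 day and at 6.23, 6.18 and 6.12 at 10 days. Ifit3, which in human cells binds and stabilises the Ifit1 protein, was at 6.59 and 6.61 in the controls, at 6.78, 6.73 and 6.60 at 1 day and at 6.60, 6.53 and 6.54 at 10 days. The first and second 1 day arrays were the highest for Ifit3. Isg15 was at 7.40 and 7.51 in the controls, at 7.49, 7.48 and 7.39 at 1 day and at 7.45, 7.51 and 7.35 at 10 days. Its group means of 7.45 ± 0.077, 7.45 ± 0.055 and 7.44 ± 0.080 (SD, n = 2, 3 and 3) were closer to each other than the arrays within any group. The Ifit1 spot was 1.69 times the mean of the blanks (median over arrays), so its small differences rest on a dim signal, while Isg15 was 5.30 times and Ifitm3 16.2 times the blanks. After subtraction of the blank mean, the Ifit1 spot ran from 16.4 to 26.4 and the Ifit3 spot from 35.0 to 59.0.

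Of the transcription factors, Irf7 and Irf9 also spanned at most 0.25 log2 over the arrays. Their SD was above that of 60.1% of tested probes in Irf7 and 71.5% in Irf9. Irf7 was at 6.47 and 6.39 in the controls, at 6.46, 6.47 and 6.38 at 1 day and at 6.51, 6.36 and 6.28 at 10 days. The 10 day group held both its highest and its lowest array. Irf9, the DNA-binding subunit of the complex with Stat2, was at 6.68 and 6.71 in the controls, at 6.81, 6.93 and 6.85 at 1 day and at 6.91, 6.82 and 6.75 at 10 days. Both controls lay below all 6 trehalose arrays.

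Stat2 had an isolated low value of its own. It was at 7.22 and 7.14 in the controls, at 7.18, 7.14 and 7.22 at 1 day and at 7.22, 6.69 and 7.17 at 10 days. The second 10 day array was 0.45 log2 below the next lowest array and the other 7 spanned a narrow range. Its spot read 74.5 there, against 111.2 to 126.6 on the other arrays. The 5 spots beside it were at 0.864 to 1.09 times their lowest value on any other array. A gap of over 0.4 log2 below every other array occurred in 96 tested probes (0.445%), 14 of them on that same array. Ifitm3 was at 8.867 on that array, the lowest of the 6 trehalose arrays, and the other 5 ran from 8.875 to 8.988. Its far lower value of 7.64 was on control replicate 2, where Stat2 was at 7.14.

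**Figure D3:**
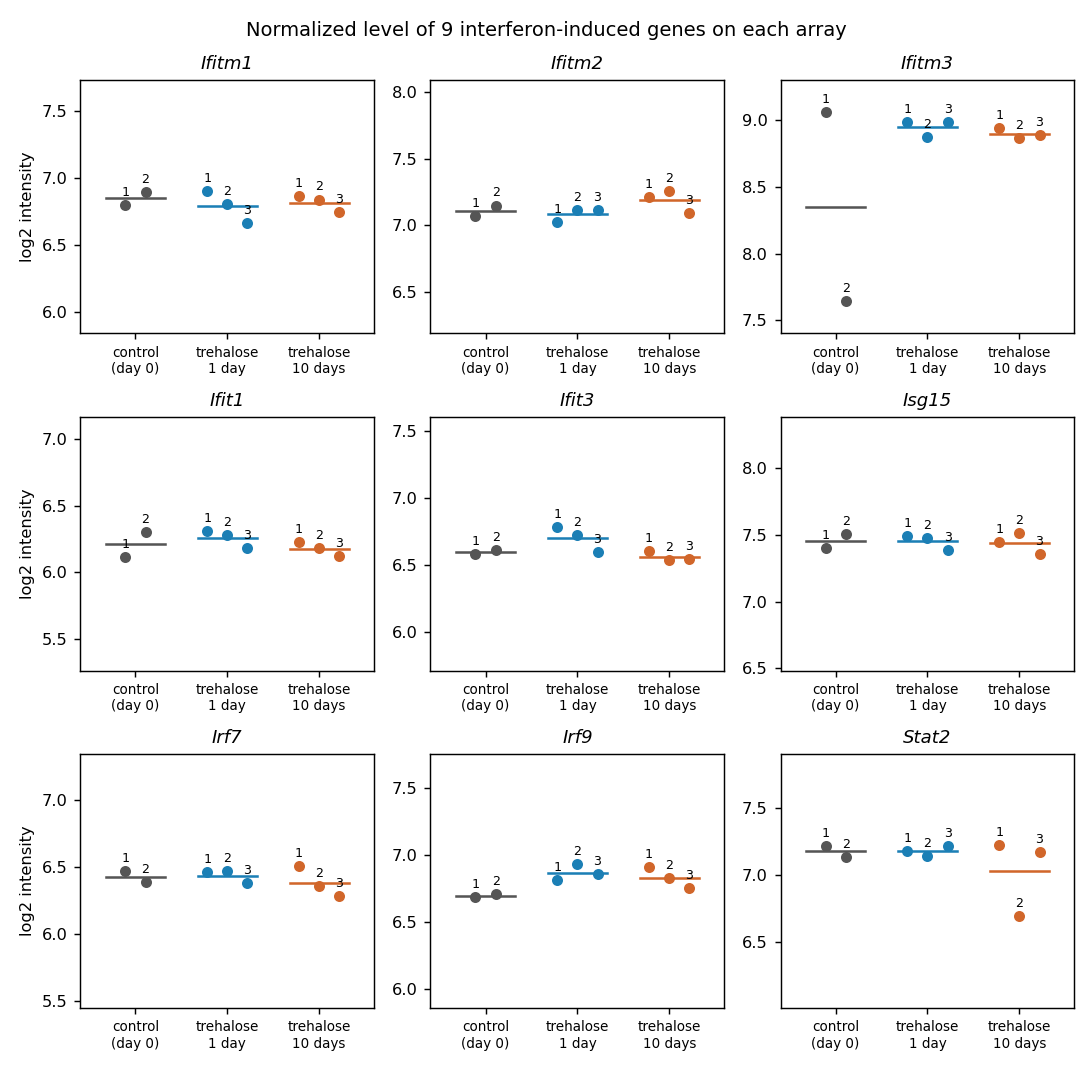
Log2 intensity of each of the 9 genes on each array, with the groups in order of time, 1 point per array labelled by its replicate number, and a bar at the group mean. All panels span the same number of log2 units. Ifitm3 in control replicate 2 (7.64) and Stat2 in the second 10 day array (6.69) stand apart. In those groups the bar lies between the low array and the rest, and the points of the other genes lie closer together.

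Apart from Ifitm3 and Stat2, the SD over the 8 arrays ran from 0.060 in Isg15 to 0.090 in Irf9. The median SD over all tested probes was 0.064, and 8 of the 9 genes were above it. Between the control arrays, 6 of the 8 genes other than Ifitm3 were higher in replicate 2 and 2 were lower, with differences from -0.083 in Irf7 to 0.188 in Ifit1. Among all tested probes, 49.7% were lower in control replicate 2. On this scale 1 of the 9 genes differed between the controls by over 1 log2, and the other 8 by at most 0.188 log2. The authors' deposited table gave wider differences, and other directions, for some of the 8. There the ratio of control replicate 2 to control replicate 1 was 0.707 in Irf7, 0.810 in Stat2, 0.890 in Ifit3 and 0.891 in Irf9. It was 0.962 in Ifitm2, 0.986 in Ifitm1, 1.01 in Isg15 and 1.28 in Ifit1, beside 0.279 in Ifitm3.

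At 1 day of trehalose none of the differences from control could be called. No gene of the 9 passed an adjusted p of 0.05 in limma, and neither did any other of the 21583 probes (0%), with 787 (3.65%) at an unadjusted p under 0.05. Of the 9 genes, 6 had a higher and 3 a lower mean, with a median of 0.0070 log2, against a median of -0.00062 and 49.4% higher over all tested probes. Irf9 averaged 6.86 ± 0.061 at 1 day and 6.69 ± 0.018 in control (SD, n = 3 and 2), a difference of 0.17 log2 (SE 0.056, 95% interval 0.040 to 0.30, limma adjusted p = 1.0). It was the only member at an unadjusted p under 0.05 and the only one whose groups did not overlap, while 18.1% of all probes had groups that did not overlap in this comparison. Ifit3 averaged 6.70 ± 0.095 at 1 day and 6.60 ± 0.020 in control, a difference of 0.10 log2 (SE 0.057, adjusted p = 1.0, limma). Isg15 differed by -0.00037 log2, with an interval of -0.14 to 0.14.

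Ifitm3 averaged 0.60 log2 more at 1 day than in control, with a 95% interval of -0.18 to 1.37 that includes no change (limma adjusted p = 1.0). This contrast uses the control values that led to the choice of the gene and is a description. Without control replicate 2 the difference was -0.11 log2. Without control replicate 1 it was 1.31 log2 (limma adjusted p = 0.00287), which sets the 3 trehalose arrays against the single low array. A lone control sample is there assumed to vary like the other groups.

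No gene of the 9 was called after 10 days either. In limma, 0 of 21583 probes (0%) passed the adjusted threshold against control, and 431 (2.00%) had an unadjusted p under 0.05. Of the 9 genes, 3 had a higher and 6 a lower mean, with a median of -0.033 log2 beside -0.0012 over all tested probes. Irf9 averaged 6.83 ± 0.079 at 10 days and 6.69 ± 0.018 in control (SD, n = 3 and 2), a difference of 0.13 log2 (SE 0.056, 95% interval 0.0035 to 0.26, limma adjusted p = 1.0). Its groups again did not overlap, as held for 13.4% of all probes. The same 2 control arrays serve both comparisons, so the second Irf9 value is not separate evidence. Stat2 averaged 7.03 ± 0.294 at 10 days and 7.18 ± 0.057 in control, with the 1 low array inside the 10 day mean (-0.15 log2, SE 0.14, limma adjusted p = 1.0). Without that array the difference was 0.020 log2.

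Ifitm3 was 0.55 log2 higher at 10 days than in control (95% interval -0.23 to 1.32, limma adjusted p = 1.0), again as a description. The difference was -0.16 log2 without control replicate 2 and 1.26 log2 without control replicate 1 (limma adjusted p = 0.00371). Sult4a1, low on the same array, was the other probe called in each comparison with control when control replicate 1 was left out.

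The comparison of 10 days with 1 day did not use the control means, though the control arrays shared the normalization and the estimate of the spread. In limma, 0 of 21583 probes (0%) passed, with 755 (3.50%) at an unadjusted p under 0.05. Ifitm3 differed by -0.050 log2 (SE 0.30, 95% interval -0.74 to 0.64, limma adjusted p = 1.0). That interval is wide because the fit pools the spread over the groups, the control group included, while the 6 trehalose arrays alone had an SD of 0.054. Of the 9 genes, 2 were higher and 7 lower at 10 days, with a median of -0.050 log2 beside -0.00063 over all tested probes. Ifit3 averaged 6.56 ± 0.037 at 10 days and 6.70 ± 0.095 at 1 day (SD, n = 3 each), a difference of -0.14 log2 (SE 0.051, 95% interval -0.26 to -0.023, limma adjusted p = 1.0). The groups of Ifit3 touched, since the third 1 day array was below the first 10 day array. No member had groups without overlap, against 8.54% of all probes. For the 7 genes other than Ifitm3 and Stat2, the bound farthest from no change in these 3 comparisons was the 0.30 log2 of Irf9 at 1 day against control.

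**Figure D4:**
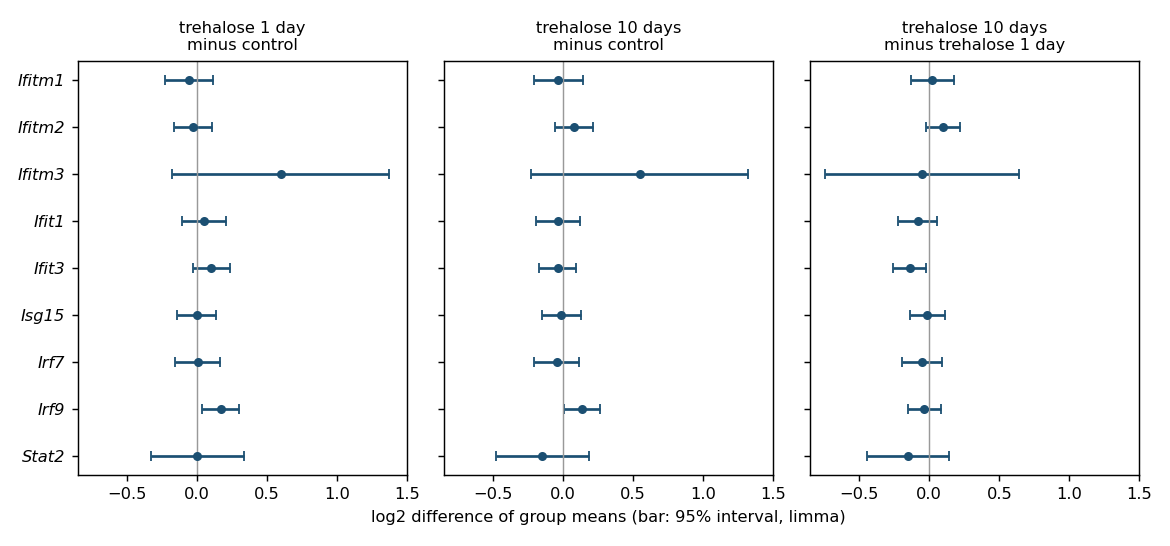
Log2 difference of group means for each of the 9 genes in the 3 comparisons, with the 95% interval of the limma fit as a bar and a line at no change. Ifitm3 has the widest intervals, from -0.18 to 1.37 at 1 day against control, and Irf9 and Ifit3 have intervals that exclude no change before adjustment over all probes.

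Whether the interferon-induced genes moved together was read from their correlations over the 8 arrays. Those with Ifitm3 are a description, since most of its spread is the control replicate 2 value by which the genes were chosen. Its SD was 0.465 over the 8 arrays and 0.072 without that array. None of the 8 Pearson correlations with Ifitm3 had an exact permutation p under 0.05. Pearson's r with Ifitm3 ran from -0.47 in Ifit1 to 0.38 in Irf9, and the exact permutation p-values ran from 0.234 to 0.853. After Benjamini-Hochberg adjustment over all tested probes, none of the 21583 was below 0.05, and the smallest adjusted p of any probe with Ifitm3 was 0.329. The pairings of 8 arrays are too few for a single probe to pass this adjustment, even at a perfect correlation. Failing it therefore does not show that genes moved apart. The median r of all tested probes with Ifitm3 was -0.0022. Of the other Ifitm genes, Ifitm2 had r = -0.18 (exact permutation p = 0.587), while Spearman's rho was -0.67 (p = 0.0831), and Ifitm1 had r = -0.41 (exact permutation p = 0.293) and rho = -0.38 (p = 0.360). Isg15 had r = -0.44 (exact permutation p = 0.234) and rho = -0.62 (p = 0.115).

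Stat2 ranked its arrays most like Ifitm3, with rho = 0.81 (exact permutation p = 0.0218, adjusted p = 0.529) but r = 0.048 (exact permutation p = 0.846). The single low arrays of the 2 genes are different, which Pearson's r reads and the ranks do not. The 2 arrays farthest from the Ifitm3 median were both controls. Without them, r with Ifitm3 was 0.60 in Stat2, 0.37 in Ifit3, 0.30 in Ifit1, 0.28 in Irf7, -0.032 in Irf9, -0.089 in Ifitm1, -0.21 in Isg15 and -0.51 in Ifitm2. The values of Ifit1 and Irf9 thus changed sign with the controls left out.

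Among all 36 pairs of the 9 genes, 24 had a positive r and 12 a negative one. The median r was 0.27, beside -0.0005 for all pairs of tested probes. The highest values joined effectors. Ifitm1 and Isg15 had r = 0.77 (exact permutation p = 0.0231, adjusted p = 0.867 over all probes), and by ranks rho = 0.76 (p = 0.0368). Their r was 0.80 without the 2 arrays farthest from the Ifitm1 median and 0.54 without the 2 farthest from the Isg15 median. Ifit1 and Ifit3 had r = 0.77 (exact permutation p = 0.0198, adjusted p = 1.0) and rho = 0.88 (p = 0.00724). Their r was 0.79 without the 2 arrays farthest from the Ifit1 median and 0.61 without the 2 farthest from the Ifit3 median. Ifit1 and Isg15 had r = 0.75 (exact permutation p = 0.0416, adjusted p = 1.0) and rho = 0.52 (p = 0.197). The lowest pair was Ifitm2 with Stat2, at r = -0.67 (exact permutation p = 0.0763). Without the 2 arrays farthest from the Ifitm2 median, among them the low Stat2 array, it was 0.058. Without the 2 farthest from the Stat2 median, which also include that array, it was -0.43. No pair passed adjustment over all tested probes.

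These correlations rest on small differences. Ifit1 spanned 0.20 log2 over the arrays and Isg15 0.16 log2, against a median SD of 0.064 over all tested probes. The labels do not give the meaning of the numbers that open the sample descriptions. No gene of the 9 passed adjustment with them, which a single gene could not do with so few arrays. Irf7 had r = -0.88 with this number (exact permutation p = 0.00521, adjusted p = 0.353) and rho = -0.79 (p = 0.0279), with r = -0.88 without the first and last arrays. Ifitm1 had r = -0.65 (exact permutation p = 0.0781) and Ifit3 r = -0.61 (exact permutation p = 0.116) with the number. With the number regressed out, the median r over the 36 pairs was 0.039, with 21 positive and 15 negative. With group means removed it was 0.22, with 25 positive and 11 negative. In that setting 5 pairs had r over 0.7, the highest being Ifitm1 with Ifit3 (0.90) and Ifitm1 with Ifit1 (0.86). One pair was under -0.7, Ifitm3 with Ifit1 (-0.73). As measured, 3 pairs were over 0.7, and 2 were with the number regressed out. The part of the description number in the pairs' correlations beyond these values was not tested.

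**Figure D5:**
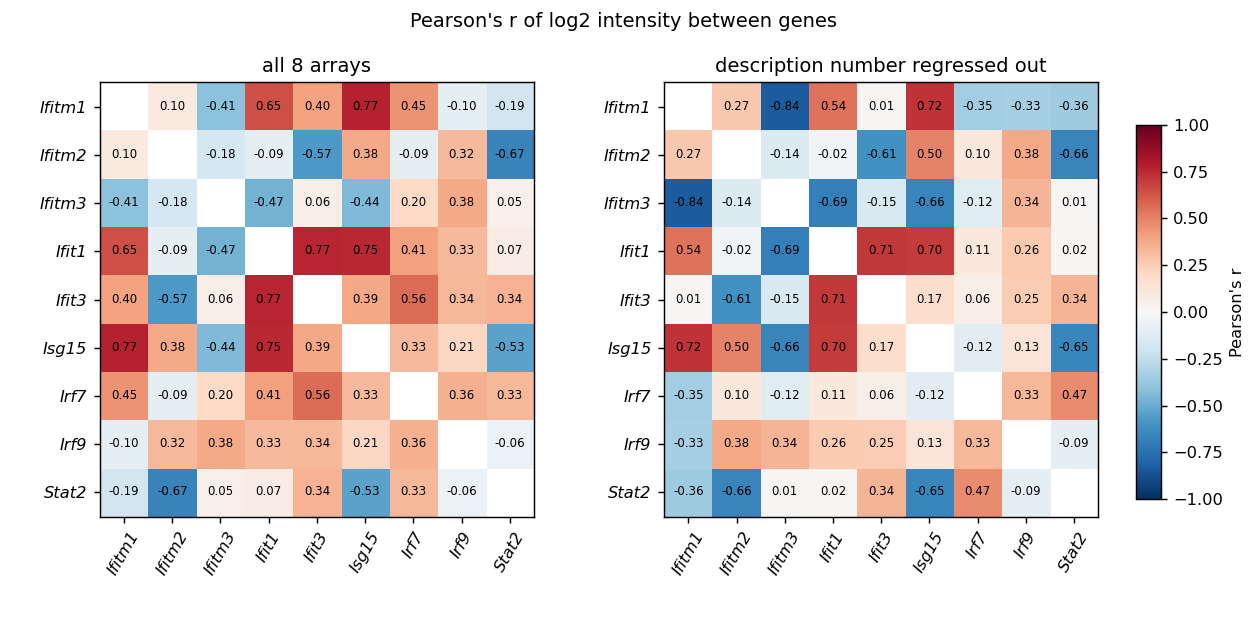
Pearson's r of log2 intensity for each pair of the 9 genes over the 8 arrays, on the left as measured and on the right with the description number regressed out of each gene. Red is positive and blue negative. The highest values on the left are those of Ifitm1 with Isg15 (0.77), Ifit1 with Ifit3 (0.77) and Ifit1 with Isg15 (0.75). Ifitm1 with Ifit3 (0.40) and Ifit3 with Isg15 (0.39) are below Ifit3 with Irf7 (0.56). The row of Ifitm3 is mostly pale or blue in both panels.

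The probes most like Ifitm3 over the arrays were sought among the 488 probes with a symbol whose range over the arrays was at least 0.58 log2, and none of those named here is on the interferon lists. Sult4a1 came first at r = 0.97, followed by Tmem167 at 0.92, Egr1 at 0.82, Cited1 at 0.78, Slc6a9 at 0.76, Krtap19-1 at 0.75, Jpt1 at 0.72 and Xlr3a at 0.69. All 8 had their lowest level in control replicate 2. Ifitm3 stood apart on that array, so a high r with it largely selects for this. Without that array r was -0.82 for Sult4a1, -0.11 for Tmem167, -0.48 for Egr1, -0.69 for Cited1, 0.20 for Slc6a9 and -0.48 for Xlr3a, and it stayed positive for Krtap19-1 (0.70) and Jpt1 (0.60). Rheb (-0.75), Celf4 (-0.70), Ensa (-0.68) and B3galt2 (-0.68) were the most opposite. Of the 113 probes of the interferon lists described next, 5 (4.42%) had r over 0.7 with Ifitm3, against 488 of all tested probes (2.26%), and all 5 spanned less than 0.58 log2. They are named after their values were seen. Ifnab had r = 0.90, Jak1 0.80, Ifna16 0.77, Ifna12 0.74 and Samhd1 0.73. Ifnab, Ifna16 and Ifna12 are dim, at 5.79 to 5.95 log2 beside a median level of 6.83 over all tested probes. Each had its lowest level in control replicate 2, which the selection by r again favours. In these 5, control replicate 2 minus control replicate 1 ran from -0.17 log2 in Jak1 to -0.045 in Ifna16. Without control replicate 2, r was 0.72 for Jak1, 0.65 for Ifna12, 0.18 for Samhd1, -0.041 for Ifnab and -0.36 for Ifna16.

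The wider interferon pathway was described from 8 lists of 123 genes, of which 106 genes with 113 probes were tested. No probe of these lists passed the adjusted threshold in any comparison. At 1 day against control, 56 probes were higher and 57 lower, with a median of -0.0010 log2, and 1 probe (0.885%) had an unadjusted p under 0.05 beside 3.65% of all probes. The counts at 10 days against control were 51 higher and 62 lower, with a median of -0.0050 log2 and 2 probes (1.77%) beside 2.00% of all. At 10 days against 1 day they were 58 and 55, with a median of 0.00084 log2 and 3 probes (2.65%) beside 3.50% of all. The largest difference of any of these probes was 0.20 log2. Between the control arrays they differed by -0.23 to 0.31 log2, with a median of 0.015, and none was lower by 1 log2 in control replicate 2.

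The ligand probes were dim, and their mean differed little between arrays. The 17 tested probes averaged 6.23 to 6.25 on every array, below the median level of 6.83 over all tested probes. With so dim a signal, an even mean does not show whether interferon transcripts were present and unchanged or absent. Most interferon alpha genes are near-identical copies of one another, so their probes may not tell them apart and their values are uncertain. Ifnb1, the interferon beta gene, was at 5.91, 5.96 and 6.01 at 10 days and at 5.89, 5.85 and 5.88 at 1 day (0.088 log2, SE 0.036, limma adjusted p = 1.0). The 10 day arrays were all above the 1 day arrays by a small margin, while 8.54% of all probes had groups without overlap in this comparison. Ifnb1 was dim on all of these arrays, so this small difference rests on a weak signal.

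The 9 receptor and kinase probes gave no difference above 0.11 log2 in any comparison. Ifnar1, a chain of the type I interferon receptor, differed by 0.11 log2 at 10 days against control (SE 0.093) and Ifnar2, the other chain, by -0.055 log2 (SE 0.045). Jak2, a kinase of the interferon gamma receptor, differed by -0.098 log2 at 1 day against control (SE 0.056). The adjusted p was 1.0 in limma for each.

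Among the other STAT and IRF factors, Irf5 was at 9.46, 9.38 and 9.46 at 10 days, against 9.26 and 9.34 in control (0.13 log2, SE 0.056, limma adjusted p = 1.0). All 3 of its 10 day arrays were above both controls, while 13.4% of all probes had groups without overlap in this comparison. Irf2, which opposes Irf1 at shared sites, differed by 0.15 log2 (SE 0.081) in the same comparison. Irf1 differed by 0.092 log2 at 1 day against control (SE 0.053).

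Of the sensors and adaptors of foreign nucleic acid, Sting1, the adaptor downstream of Cgas, had the smallest p in both comparisons with control. It was at 6.54, 6.53 and 6.43 at 1 day and at 6.56, 6.57 and 6.49 at 10 days, against 6.62 and 6.69 in control. The trehalose arrays were all below the controls, with differences of -0.16 log2 at 1 day (SE 0.049, limma adjusted p = 1.0) and -0.12 log2 at 10 days (SE 0.049, limma adjusted p = 1.0). Groups did not overlap, in either direction, for 18.1% of all probes at 1 day and 13.4% at 10 days against control. The same controls serve both comparisons, so the second Sting1 value is not separate evidence. Zbp1, a sensor of left-handed nucleic acid, was at 7.88, 8.00 and 7.93 at 10 days and at 8.10, 8.01 and 8.08 at 1 day, a difference of -0.13 log2 (SE 0.043, limma adjusted p = 1.0). Tbk1, the kinase that activates interferon regulatory factors, differed by 0.10 log2 at 1 day against control (SE 0.048).

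The remaining lists gave no call either. In the pathway that attaches and removes Isg15, with its brakes, no difference of the 5 probes exceeded 0.046 log2, and Usp18, which removes Isg15 and restrains the receptor, differed by 0.012 log2 at 1 day against control. The 3 other Ifitm genes tested, Ifitm5, Ifitm7 and Ifitm10, differed by at most 0.089 log2. Between the control arrays, the mean of those 3 genes was 6.66 in replicate 2 and 6.64 in replicate 1, beside the 1.42 log2 of Ifitm3. Among the 34 probes of other antiviral genes, Ifi27 had the largest value at 0.20 log2 at 10 days against 1 day (SE 0.10), with the third 10 day array at 9.59 and the other 7 arrays from 9.08 to 9.32. Among the 24 probes for genes of interferon gamma and antigen presentation, Ciita, the master regulator of class II genes, differed by -0.13 log2 at 10 days against 1 day (SE 0.042, limma adjusted p = 1.0). Psme1, a proteasome activator subunit, differed by -0.17 log2 in the same comparison (SE 0.078).

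The list means of cell type markers in control replicate 2 lay within the range of the other arrays. Single probes were less even. Lower in control replicate 2 than in control replicate 1 were 7 of 8 blood cell and 4 of 4 oligodendrocyte probes. So were 7 of 12 endothelial, 5 of 11 microglial and 0 of 9 choroid plexus probes. The mean of 12 endothelial markers was 7.96 in control replicate 2 and 7.98 in control replicate 1, and ran from 7.86 to 7.96 on the trehalose arrays. For 11 microglial markers it was 8.22 in control replicate 2 and 8.21 in control replicate 1, and 8.07 to 8.24 on the trehalose arrays. The 8 blood cell probes were lower, at 6.24 in control replicate 2 and 6.41 in control replicate 1, and ran from 6.21 to 6.64 with trehalose. The second 10 day array was at 6.21 in blood cell markers and at 8.87 in Ifitm3. For choroid plexus the mean of 9 probes was 7.93 in control replicate 2 and 7.75 in control replicate 1, and 7.74 to 8.17 on the trehalose arrays. Neuronal (10.3 to 10.5), astrocyte (9.09 to 9.20) and oligodendrocyte (11.03 to 11.28) markers were on average high on all 8 arrays, so the defining cells of brain were represented. The part of cell composition in the level of Ifitm3 was not tested beyond these values.

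Without the third 10 day array, no probe was called in either comparison of the 10 day group, Irf9 at 10 days against control was 0.17 log2 and Ifit3 at 10 days against 1 day was -0.13 log2. Between 86.3% and 92.1% of probes lay above the blank limit on each array, the correlation of log2 values between arrays ran from 0.994 to 0.998, and control replicate 2 had the lowest share above the limit. The design text counts 2 mice at day 0 and 3 at 1 day, with no count for 10 days, and no label ties a sample to a mouse, so p-values measure only the spread between these samples, which may be technical. The number of arrays limits the precision, with a median 95% interval of 0.13 log2 on each side in the comparisons with control.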

How the data were processed

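The 9 genes, the wider interferon lists and the marker lists were chosen with earlier results of these data known. Each array's deposited file gives, per its header, a median intensity per spot, a local background intensity and flags. The authors' second deposited table gives an intensity they had processed, which follows a straight line of the spot minus about the blank mean, scaled to a median of 25.0. It was used as an alternative. Scan dates and slides are not given in the sources used. Genes were named from the platform annotation, which listed 1 symbol for 20690 of 23473 probes, updated through RefSeq.

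Spot medians were corrected by normexp (offset 50, fitted on all spots), with 10 probe spots of failed flag set missing. They were then quantile normalized and taken as log2 in limma 3.58.1 under R 4.3.3. The local background was not subtracted, since it correlated with the spots (0.943 to 0.985 on the log scale). Probes above the blank mean plus 2 SD on at least 2 arrays were tested. All 3 groups shared 1 fit with 5 residual degrees of freedom, with Benjamini-Hochberg adjustment over all 21583 probes and a threshold of 0.05. The fit was tested on simulated data. Correlations carry two-sided exact permutation p-values over all pairings of the 8 arrays.

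The named genes are the 9 members, Sult4a1, the 2 genes of each list with the lowest p in each comparison, and the 8 probes most like and 4 most opposite to Ifitm3. Not all of these are given values. The number of arrays limits the precision.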

Additional observations from a re-analysis of the deposited data

How the results depend on the processing

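Leaving out 1 array at a time gave 0 to 2 called probes at 1 day against control, 0 to 2 at 10 days against control and 0 to 0 at 10 days against 1 day. The 2 calls came without control replicate 1 and were Ifitm3 (1.31 and 1.26 log2) and Sult4a1. Over these runs the change of Ifitm3 ranged from -0.11 to 1.31 log2 at 1 day and from -0.16 to 1.26 log2 at 10 days against control. Subtraction of the blank mean gave 1 call at 10 days against control and 1 at 10 days against 1 day, as did trend and robust variances, and each time the probe was Il1rl2, which lies outside the interferon lists and was named after its values were seen. The other alternatives, a fit with the replicate block included, gave 0 calls in all 3 comparisons. The deviations of same-numbered arrays from their group means correlated over 0.1 in 6 of 7 pairs, at 0.119 to 0.261, and at -0.026 in the other pair, of the second 1 day and 10 day arrays. Since not every pair passed 0.1, the numbers were not taken to pair the samples, although 7 of 8 arrays correlated best with an array of their own number, a hint from the data. The difference of Ifitm3 between the control arrays was -1.42 log2, and -1.72 with the blank mean subtracted, -2.15 with the local background subtracted, -1.84 in the authors' deposited table and -1.39 with median scaling.

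Of the changes of the 9 genes, Ifitm3 included, 26 turned their sign when an array was left out and 26 under another setting, none of them called. The cause was not tested. With single arrays left out, the changes that turned ranged as follows on the log2 scale. At 1 day against control, Ifitm1 ranged from -0.11 to 0.0078, Ifitm2 from -0.063 to 0.013, Ifit1 from -0.045 to 0.14, Isg15 from -0.054 to 0.054, Irf7 from -0.034 to 0.048 and Stat2 from -0.038 to 0.043. At 10 days against control, Ifitm1 ranged from -0.082 to 0.015, Ifit1 from -0.13 to 0.060, Isg15 from -0.068 to 0.040, Irf7 from -0.11 to 0.0066 and Stat2 from -0.25 to 0.020. At 10 days against 1 day, Ifitm1 ranged from -0.041 to 0.079, Isg15 from -0.051 to 0.029, Irf9 from -0.077 to 0.0025 and Stat2 from -0.25 to 0.018. With the local background subtracted, Ifitm1 was at 0.20 log2 at 1 day against control and -0.46 at 10 days against 1 day, and Ifitm2 at 0.0076, -0.16 and -0.16 in the 3 comparisons. The same setting gave Ifit3 -0.13, Irf7 -0.00017 and Stat2 -0.048 at 1 day, and Ifit1 0.026 and Irf9 -0.042 at 10 days against control. In the authors' deposited table, processed again here, Irf7 was at -0.028 and Stat2 at -0.045 at 1 day, Isg15 at 0.0096 at 10 days against control, and Ifitm3 at 0.021, Isg15 at 0.072 and Irf9 at 0.013 at 10 days against 1 day. Array weights gave Isg15 0.013 and Stat2 -0.0017 at 1 day and Ifitm1 -0.013 at 10 days against 1 day. The replicate block gave Isg15 0.037 and Stat2 -0.044 at 1 day, and Ifitm1 0.017 and Isg15 0.023 at 10 days against control. Median scaling gave Isg15 0.00088 at 1 day. The description number as a covariate gave Irf7 -0.0061 at 1 day and Ifitm3 0.0053 at 10 days against 1 day.

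Correlations with Ifitm3 turned sign with the local background subtracted for Ifitm1 (0.18), Ifit1 (0.32), Ifit3 (-0.41) and Irf7 (-0.11). They also turned in the authors' table for Ifitm2 (0.15), with group means removed for Ifit3 (-0.14) and Irf9 (-0.15), and with the description number regressed out for Ifit3 (-0.15) and Irf7 (-0.12). Without the 2 arrays farthest from the Ifitm3 median, Ifit1 (0.30) and Irf9 (-0.032) turned. With single arrays left out, r with Ifitm3 ranged from -0.10 to 0.11 in Ifit3, from -0.54 to 0.65 in Irf9 and from -0.0054 to 0.64 in Stat2.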
